A study of Schizosaccharomyces pombe with 4 samples.

Results

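Secretory and vacuolar sorting genes of the fission yeast Schizosaccharomyces pombe were followed on Affymetrix arrays in cells overexpressing the transcription factor Atf1. The members were the S. pombe genes whose symbol in the platform annotation consists of sec, vps, ypt, exo, apm, apl, aps, cog, bet, sar, syb, psy or fsv followed by digits. Of 101 matches, 1, the chromatin gene vps71, was left out, which gave 100 members among 2899 S. pombe genes named on the array. Of these, 99 lay above background on at least 2 of the 4 arrays and were tested, and 97 lay above it on all 4. Background was the level under which 95% of the budding yeast (S. cerevisiae) probe sets of the same array lay. The remaining member, bet5, which encodes a subunit of the TRAPP tether, had deposited log2 values of 2.67 and 2.51 on the control arrays and 2.65 and 2.78 on the Atf1-OP arrays, and was not tested. The rule also took in 4 genes that share only the naming pattern: the nuclease genes exo1, exo2 and exo5, and aps1, which encodes a diadenosine polyphosphate hydrolase.

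Proteins bound for the cell surface or the vacuole enter the endoplasmic reticulum, leave it in COPII-coated vesicles, pass the Golgi, where COPI coats carry material back, and are then sorted to the plasma membrane or to endosomes and the vacuole. At each step a coat or adaptor selects cargo, a Rab GTPase and a tether bring the vesicle to its target, and SNARE proteins fuse the membranes. In fission yeast this traffic also supplies membrane and wall enzymes to the growing tips and to the septum.

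The study compared 2 arrays of Atf1-OP cells, the overexpression group, with 2 arrays of a wild type strain carrying the empty vector, the control group. The labels call the arrays biological replicates. The sources used here do not give the vector, its promoter, the medium, the growth stage, or what the groups shared beyond the vector. Values below are quantile-normalized log2 values of 1 probe set per gene, and they are not compared between genes, because probe sets differ in brightness. Each value is relative to the other S. pombe transcripts of a bulk culture, so that fewer cells expressing a gene and less RNA per cell cannot be told apart.

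As the check of the labels, atf1 had values of 6.13 and 6.42 on the control arrays and 6.83 and 7.37 on the Atf1-OP arrays, so that the groups did not overlap. The difference was 0.83 ± 0.20 (SE, n = 2 per group; limma, adjusted p = 0.0262). In limma fits that left out 1 array, the adjusted p was 0.109 without control replicate 1, rose to 0.155 when Atf1-OP replicate 2 was missing, and stood at 0.0621 in the absence of control replicate 2. It was 0.0687 in a fit without a trend of variance with level.

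Several features of the arrays moved with the groups. The added hybridization controls averaged 12 and 11.8 on the control arrays and 11.0 and 10.8 on the overexpression arrays, on the deposited log2 scale. The 5′ probe sets of the added poly-A controls averaged 3.07 and 2.94 against 4.15 and 4.45, and the probe sets for the cells' own ribosomal RNA averaged 11.1 and 11.1 against 10.4 and 10.5. Among 5 S. pombe control genes with 3′ and 5′ probe sets, the difference of 3′ minus 5′ values did not run one way. It was lower on both Atf1-OP arrays for ACT1 (3.86 and 4.0 against 3.58 and 3.70) and GPD3 (3.59 and 3.71 against 3.03 and 3.12), higher for TFIID (-0.16 and -0.077 against 0.53 and 1.33), and overlapped between groups for RIP1 and SRB4. The background level after normalization also differed, at 3.25 and 3.33 on the control arrays and 2.67 and 2.64 on the Atf1-OP arrays. The part of these features in the results below was not tested.

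Taken as a set, these genes did not move one way. Of the 99 tested members, 5 rose, 12 fell and 82 did not pass an adjusted p of 0.05, against 10.3% of all 2857 tested genes that rose and 11.1% that fell (limma, Benjamini-Hochberg adjustment over all genes). The members called in either direction made up 17.2%, beside 21.4% of all genes. The share that rose, 5.05%, lay below that of all genes, and the share that fell, 12.1%, near it. The median log2 difference was 0.02 over members and -0.01 over all genes, with an interquartile range of -0.26 to 0.24 in members and -0.25 to 0.24 in all genes. The arrays of the groups did not overlap for 63 members (63.6%), beside 66.3% of all genes. None of the 4 genes outside secretion passed or had groups apart, so that the counts of 5 and 12 hold for the 95 others as well. The plot of cumulative shares shows both curves crossing 0 near their middle.

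**Figure D1:**
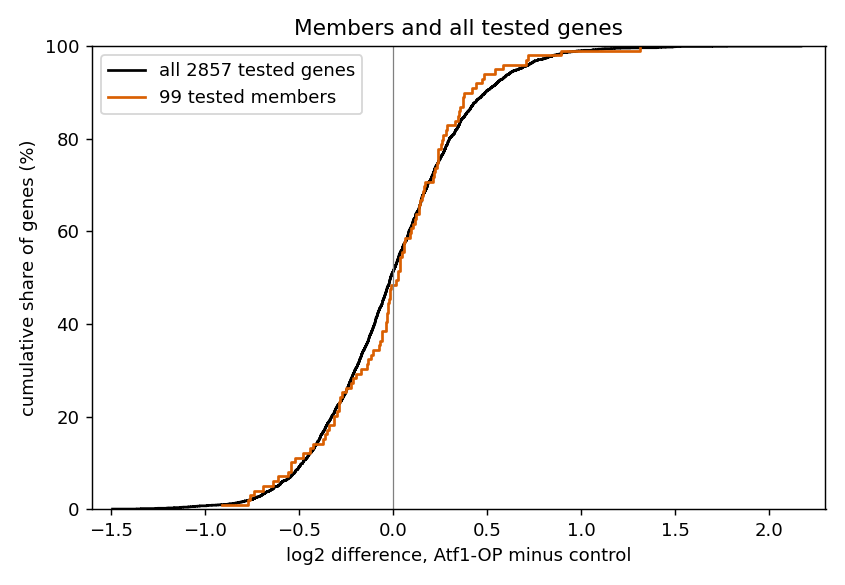
Cumulative share of genes (%, vertical axis) against the log2 difference between overexpression and control (horizontal axis) for the 99 tested members and all 2857 tested genes. The curves run close together, with medians of 0.02 and -0.01.

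The balance of directions depended on the scaling. In the deposited values the median of all genes lay 0.27 higher and that of the members 0.30 higher under overexpression. There 29 members rose and 5 fell, against 31.6% and 4.06% of all genes. Of the 36 members with a negative difference that did not pass, 23 had a positive one in the deposited values, so that the sign of these values depends on the scaling. With median centring, 12 members rose and 15 fell, against 15.9% and 12% of all genes. Other settings of scaling, background filter, variance model, probe set choice, length correction, replicate block and arrays left out gave 15 settings in all. Each of the 17 members called after quantile normalization kept its sign under all 14 alternatives, and 10 of them were also called in the deposited values. Single arrays weighed heavily: without control replicate 1, 5 of the 17 kept their call, and without control replicate 2, 3 did, when 4.20% and 4.03% of all genes passed. Without Atf1-OP replicate 1, 9 kept it, and without Atf1-OP replicate 2, 6 did. The plot of values on each array shows the 17 genes.

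**Figure D2:**
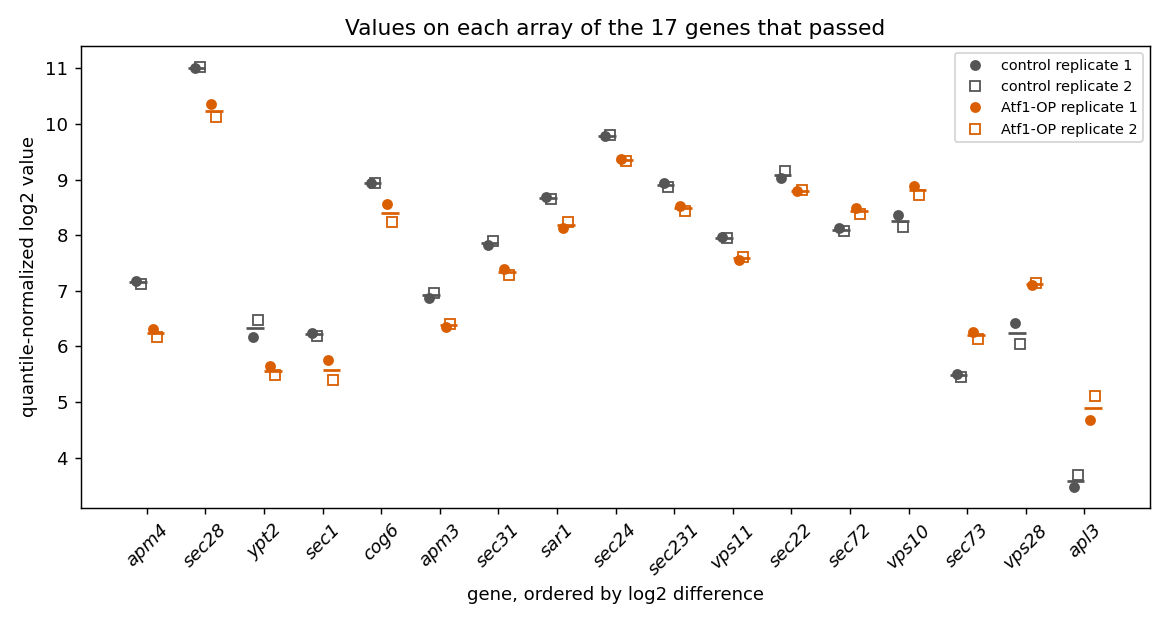
Quantile-normalized log2 value (vertical axis) of each of the 17 members that passed, on the 2 control arrays (grey) and the 2 Atf1-OP arrays (orange); short lines mark group means (n = 2). The groups do not overlap for any of these genes, from apm4, the largest fall, at left to apl3, the largest rise, at right.

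The clearest group of falls was in the COPII coat, which buds vesicles from the endoplasmic reticulum. Of its 7 measured members, 4 fell and none rose, beside 11.1% of all genes that fell. The median log2 difference was -0.42, and -0.21 in the deposited values. The falls were in the GTPase that starts the coat, in 2 inner-coat genes and in an outer-coat gene. These genes lay between 1.34-fold and 1.44-fold lower under overexpression.

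Values of sec24 (SPAC22F8.08), the inner-coat subunit that binds cargo, were 9.77 and 9.81 on the control arrays and 9.36 and 9.33 on the Atf1-OP arrays. Both overexpression arrays lay well under both control arrays, and the replicates lay close together. The gene fell by 0.44 ± 0.07 (SE, n = 2 per group; limma, adjusted p = 0.00994). Its coat partner sec231 (SPCC31H12.07), which encodes Sec23, read 8.95 and 8.86 against 8.53 and 8.43. Again the overexpression arrays were both lower, and sec231 fell by 0.42 ± 0.09 (SE; limma, adjusted p = 0.018). The GTPase gene sar1 (SPBC31F10.06C), whose product recruits the inner coat to the membrane, read 8.69 and 8.64 against 8.13 and 8.24. It was lower on both overexpression arrays and fell by 0.48 ± 0.09 (SE; limma, adjusted p = 0.0146). The outer-coat gene sec31 (SPBC8D2.20C) read 7.83 and 7.90 against 7.40 and 7.29, with no overlap, and fell by 0.52 ± 0.11 (SE; limma, adjusted p = 0.0177).

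The other COPII members did not share this pattern of values. For sec13, the partner of Sec31 in the outer coat, the arrays read 8.04 and 8.10 against 8.13 and 8.13, a difference of 0.06 (adjusted p = 0.656). The scaffold gene sec16 read 7.31 and 7.22 against 7.58 and 7.51, higher by 0.28 without passing (adjusted p = 0.110). The paralog of sec231, sec2302, read 7.20 and 7.07 against 7.23 and 7.16, with overlapping groups and a 95% interval of the difference from -0.22 to 0.34. The 4 falls kept their sign in every setting tried. All 4 calls were lost when either control array was left out and in the fit without a variance trend, 2 of them in the deposited values, and that of sec31 without Atf1-OP replicate 2.

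The COPI coat, which returns vesicles from the Golgi to the endoplasmic reticulum, held 4 measured members, of which 1 fell and 3 did not pass. Of all genes, 11.1% fell. Arrays for sec28 (SPBC24C6.05), the epsilon subunit that braces the coat, read 11.00 and 11.02 on the control arrays and 10.36 and 10.12 on the Atf1-OP arrays. Both Atf1-OP arrays lay below both control arrays, and the Atf1-OP arrays had the larger spread (SD 0.17 against 0.018 in the control). The gene fell by 0.77 ± 0.09 (SE, n = 2 per group), or 1.71-fold (limma, adjusted p = 0.00364), and it passed in all 15 settings. The other 3 members had positive differences that did not pass: 0.37 for sec27 (adjusted p = 0.0707), 0.27 for sec21 and 0.14 for sec26. For sec21 the arrays read 7.65 and 7.63 against 7.71 and 8.10, so that the difference came mostly from Atf1-OP replicate 2. Of the COPI genes outside the naming rule, ret2 differed by -0.35 without passing (adjusted p = 0.0564) and ret3 by 0.16 (adjusted p = 0.301). The plot of coat and adaptor members sets sec28 apart from the other 3 COPI members.

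**Figure D3:**
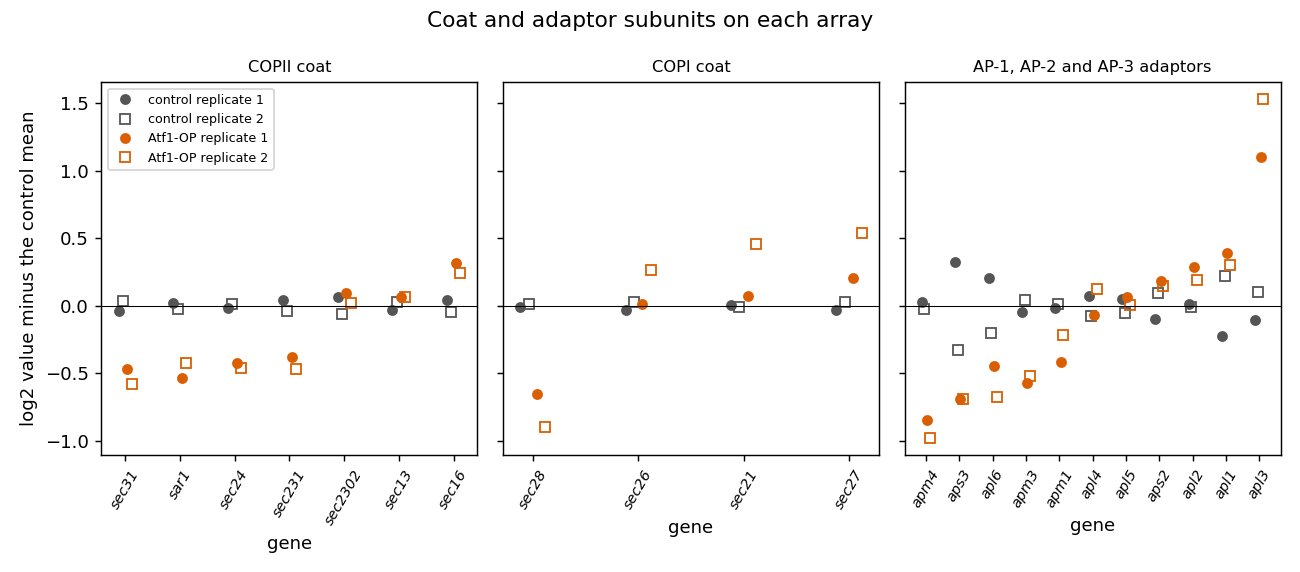
Log2 value minus the control mean of the same gene (vertical axis) for each tested member of the COPII coat, the COPI coat and the AP adaptors, on the 2 control arrays (grey) and the 2 Atf1-OP arrays (orange). In COPII, sec31, sar1, sec24 and sec231 lie below 0 on both Atf1-OP arrays, and in COPI only sec28 does; among the adaptors apm4 and apl3 stand at opposite ends.

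Clathrin adaptors choose cargo at the plasma membrane (AP-2), the trans-Golgi and endosomes (AP-1) and on the route to the vacuole (AP-3). With quantile normalization of all 4 arrays, their 11 measured subunits held the largest rise and the largest fall of all members, and both belonged to AP-2. The rank of the rise depended on the setting. With an offset of 16 on the linear scale, vps28 rose by 0.77 and the AP-2 gene apl3 by 0.71. Altogether 1 adaptor gene rose and 2 fell, around a median of 0.03, beside 10.3% of all genes that rose and 11.1% that fell.

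The AP-2 alpha subunit gene apl3 (SPBC691.03C) read 3.48 and 3.69 on the control arrays and 4.68 and 5.11 on the Atf1-OP arrays. Both control arrays were dim but above background, and both overexpression arrays were higher. The gene rose by 1.31 ± 0.22 (SE, n = 2 per group), or 2.48-fold (limma, adjusted p = 0.0100). It passed in 14 of 15 settings and lost its call without Atf1-OP replicate 2. The size of the rise depended on the setting, from 0.71 with an offset of 16 added on the linear scale to 1.8 in the deposited values, and its control values lay close to background. The AP-2 mu subunit gene apm4 (SPAC31A2.09C), which reads sorting signals in cargo tails, read 7.18 and 7.13 against 6.31 and 6.18. It was lower on both overexpression arrays, fell by 0.91 ± 0.13 (SE), or 1.88-fold (limma, adjusted p = 0.00677), and passed in all 15 settings. The remaining AP-2 genes, apl1 and aps2, differed by 0.34 (adjusted p = 0.271) and 0.17 (adjusted p = 0.304). For aps2 the arrays read 7.64 and 7.84 against 7.92 and 7.89.

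In AP-3 the mu subunit gene apm3 (SPBC651.11C) read 6.88 and 6.96 on the control arrays and 6.35 and 6.40 on the Atf1-OP arrays. The groups lay apart, and apm3 fell by 0.54 ± 0.13 (SE; limma, adjusted p = 0.0253), a call lost in each of the 4 fits without 1 array and in the deposited values. Of the other AP-3 genes, apl6 differed by -0.56 (adjusted p = 0.0635) and aps3 by -0.69 (adjusted p = 0.0682), whereas apl5 differed by 0.04. For aps3 both overexpression arrays had the same normalized value, 5.35, which does not show their spread. Their deposited values were 5.57 and 5.62. The control arrays of aps3 lay further apart, at normalized values of 6.36 and 5.71. In AP-1 no gene passed: apm1 differed by -0.31, apl2 by 0.24 and apl4 by 0.03.

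Sec7-family exchange factors load ARF GTPases with GTP, the step that recruits COPI and AP-1 at the Golgi. Of the 4 genes, 2 rose and 2 did not pass, with a median of 0.35, beside 10.3% of all genes that rose. The sec73 gene (SPAC19A8.01C) read 5.51 and 5.46 on the control arrays and 6.27 and 6.14 on the Atf1-OP arrays. It was higher on both overexpression arrays and rose by 0.72 ± 0.16 (SE, n = 2 per group), or 1.65-fold (limma, adjusted p = 0.0190). Its relative sec72 (SPAC30.01C) read 8.14 and 8.07 against 8.49 and 8.37, a smaller gap in the same direction, and rose by 0.33 ± 0.10 (SE; limma, adjusted p = 0.0472). Another gene, sec74, differed by 0.37 without passing (adjusted p = 0.146). The arrays of sec71 read 9.11 and 8.92 against 8.82 and 8.88, a difference of -0.17 (adjusted p = 0.230) that was 0.05 in the deposited values. Both calls were lost in each of the 4 fits without 1 array, and that of sec72 also with median centring, without a trend and with a correction for gene length.

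Entry into the endoplasmic reticulum showed no call in 7 members, where 21.4% of all genes were called in either direction. The median of the 7 was -0.08. The main channel gene sec61 read 6.0 and 6.21 on the control arrays and 6.52 and 6.63 on the Atf1-OP arrays, higher on both arrays by 0.47 (adjusted p = 0.0609). Its accessory genes sec62 and sec63, which serve import after translation, differed by -0.03 and 0.22 with overlapping groups. For sec62 the arrays read 5.11 and 4.8 against 4.70 and 5.14. The gene sec65, whose product belongs to the signal recognition particle, read 8.12 and 8.13 against 7.83 and 7.85, lower by 0.28 without passing (adjusted p = 0.0722). The signal peptidase gene sec11, the translocon gene sec66 and the dolichol kinase gene sec59 had differences of -0.08, -0.36 and -0.12.

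Tethers catch vesicles before fusion, and 1 of the 7 measured subunits of COG, the tether for retrograde traffic within the Golgi, fell. Of all genes, 11.1% fell. Arrays for cog6 (SPBC776.10C) read 8.93 and 8.95 on the control arrays and 8.55 and 8.24 on the Atf1-OP arrays. The overexpression arrays were both lower, although they differed from each other by more than the control arrays did. The gene fell by 0.54 ± 0.12 (SE, n = 2 per group; limma, adjusted p = 0.0188), and its call was lost when either control array was left out and in the fit without a trend. The rest of COG ran from -0.35 (cog8, adjusted p = 0.0682) to 0.58 (cog3, adjusted p = 0.0782), with differences of -0.31 for cog2, -0.21 for cog5, 0.49 for cog1 and 0.22 for cog4. The groups did not overlap for 6 of the 7 COG genes, 4 of them lower and 2 higher under overexpression, where 66.3% of all genes had groups apart. For cog4, the exception, the arrays read 4.07 and 3.58 against 4.07 and 4.01.

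No member passed among the smaller Golgi and endosome tethers, where 21.4% of all genes passed in either direction. The Dsl1 complex gene sec39, for vesicles arriving at the endoplasmic reticulum, read 3.93 and 4.47 against 4.94 and 4.88, a difference of 0.71 (adjusted p = 0.0628). The TRAPP gene bet3 read 4.92 and 5.25 against 4.76 and 4.86, a difference of -0.27 (adjusted p = 0.328). In the GARP complex, which receives vesicles from endosomes at the Golgi, vps51 read 4.92 and 5.50 against 4.66 and 4.27, with a difference of -0.74 (adjusted p = 0.0722). For vps52 the arrays read 8.09 and 8.11 against 8.09 and 7.84, and the differences of vps53 and vps54 were 0.05 and -0.04.

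The exocyst, which tethers secretory vesicles to the plasma membrane at the tips and the septum, had 5 measured subunits. Their differences lay between -0.02 and 0.04, and the groups overlapped for each of them, where 66.3% of all genes had groups apart. Without control replicate 1 the differences ran from -0.25 to 0.068, and without control replicate 2 from -0.11 to 0.23. Arrays for sec6 read 7.39 and 7.22 on the control arrays and 7.13 and 7.44 on the Atf1-OP arrays, and those for exo70 read 4.95 and 5.44 against 5.24 and 5.13. These values crossed over between groups. The 95% intervals of the difference ran from -0.35 to 0.31 for sec6, -0.31 to 0.27 for sec8, -0.35 to 0.43 for sec10, -0.40 to 0.47 for sec15 and -0.50 to 0.48 for exo70, so that changes within these bounds could not be seen with 2 arrays per group. In the deposited values the 5 genes lay between 0.15 and 0.52, around the shift of 0.27 of all genes. None was called in any of the 15 settings.

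Among the 11 SNARE and fusion factor members, 9 did not pass and the 2 others fell, beside 11.1% of all genes. Their median was 0.12. The gene sec1 (SPCC584.05), whose product clasps the SNAREs of the plasma membrane, read 6.25 and 6.18 on the control arrays and 5.75 and 5.40 on the Atf1-OP arrays. It was lower on both overexpression arrays and fell by 0.64 ± 0.17 (SE, n = 2 per group; limma, adjusted p = 0.0374). The SNARE gene sec22 (SPBC2A9.08C), for traffic between the endoplasmic reticulum and the Golgi, read 9.03 and 9.15 against 8.79 and 8.81. It fell by 0.29 ± 0.09 (SE; limma, adjusted p = 0.0495), at the edge of the threshold, and passed in 5 of 15 settings. The call of sec1 was lost without control replicate 1, control replicate 2 or Atf1-OP replicate 2, with median centring, in the deposited values and without a trend.

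The plasma membrane SNARE genes did not pass. For psy1, the syntaxin that also builds the forespore membrane, the arrays read 5.45 and 5.67 against 5.22 and 4.67, a difference of -0.61 (adjusted p = 0.0901). The synaptobrevin gene syb1 differed by -0.25 and the SNAP-25-like gene sec9 by 0.24. For the genes that take SNARE complexes apart, sec18 read 9.36 and 9.43 against 9.59 and 9.55, a difference of 0.17 (adjusted p = 0.140), and sec17 differed by 0.36 (adjusted p = 0.0991). The Golgi SNARE gene bet1 read 3.63 and 4.24 against 4.27 and 4.44, a difference of 0.42 (adjusted p = 0.253). The differences of sec20, fsv1 and vps45, whose products act in the endoplasmic reticulum and on the endosomal route, were -0.29, 0.12 and 0.14.

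Rab GTPases mark each compartment, and 1 of 7 fell, beside 11.1% of all genes. Arrays for ypt2 (SPAC9E9.07C), the Rab of secretory vesicles bound for the plasma membrane, read 6.18 and 6.47 on the control arrays and 5.64 and 5.49 on the Atf1-OP arrays. Both overexpression arrays were lower, and ypt2 fell by 0.76 ± 0.17 (SE, n = 2 per group), or 1.69-fold (limma, adjusted p = 0.0217). That call was lost without control replicate 2, without either overexpression array and in the deposited values. The gene for its exchange factor, sec2, read 5.66 and 5.57 against 5.43 and 5.59, a difference of -0.11 (adjusted p = 0.674).

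The Rab of the early Golgi, ypt1, read 10.76 and 10.66 against 10.75 and 10.78, with overlapping groups and a difference of 0.06 (95% interval -0.10 to 0.21). The endosomal Rab gene ypt5 differed by -0.02, and its exchange factor gene vps901 read 7.40 and 7.44 against 7.52 and 7.35, a difference of 0.01. A second gene of that family, vps902, now named muk1, differed by 0.26 (adjusted p = 0.250). The Rab gene ypt3, for late Golgi and recycling traffic, differed by 0.29 (adjusted p = 0.117) and ypt4, read at 5.68 and 5.71 against 5.40 and 5.31, by -0.34 (adjusted p = 0.166). The vacuolar Rab genes ypt7 and ypt71 differed by 0.26 and 0.38. For ypt71 the arrays read 6.11 and 6.09 against 6.05 and 6.90, so that Atf1-OP replicate 2 alone was high.

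**Figure D4:**
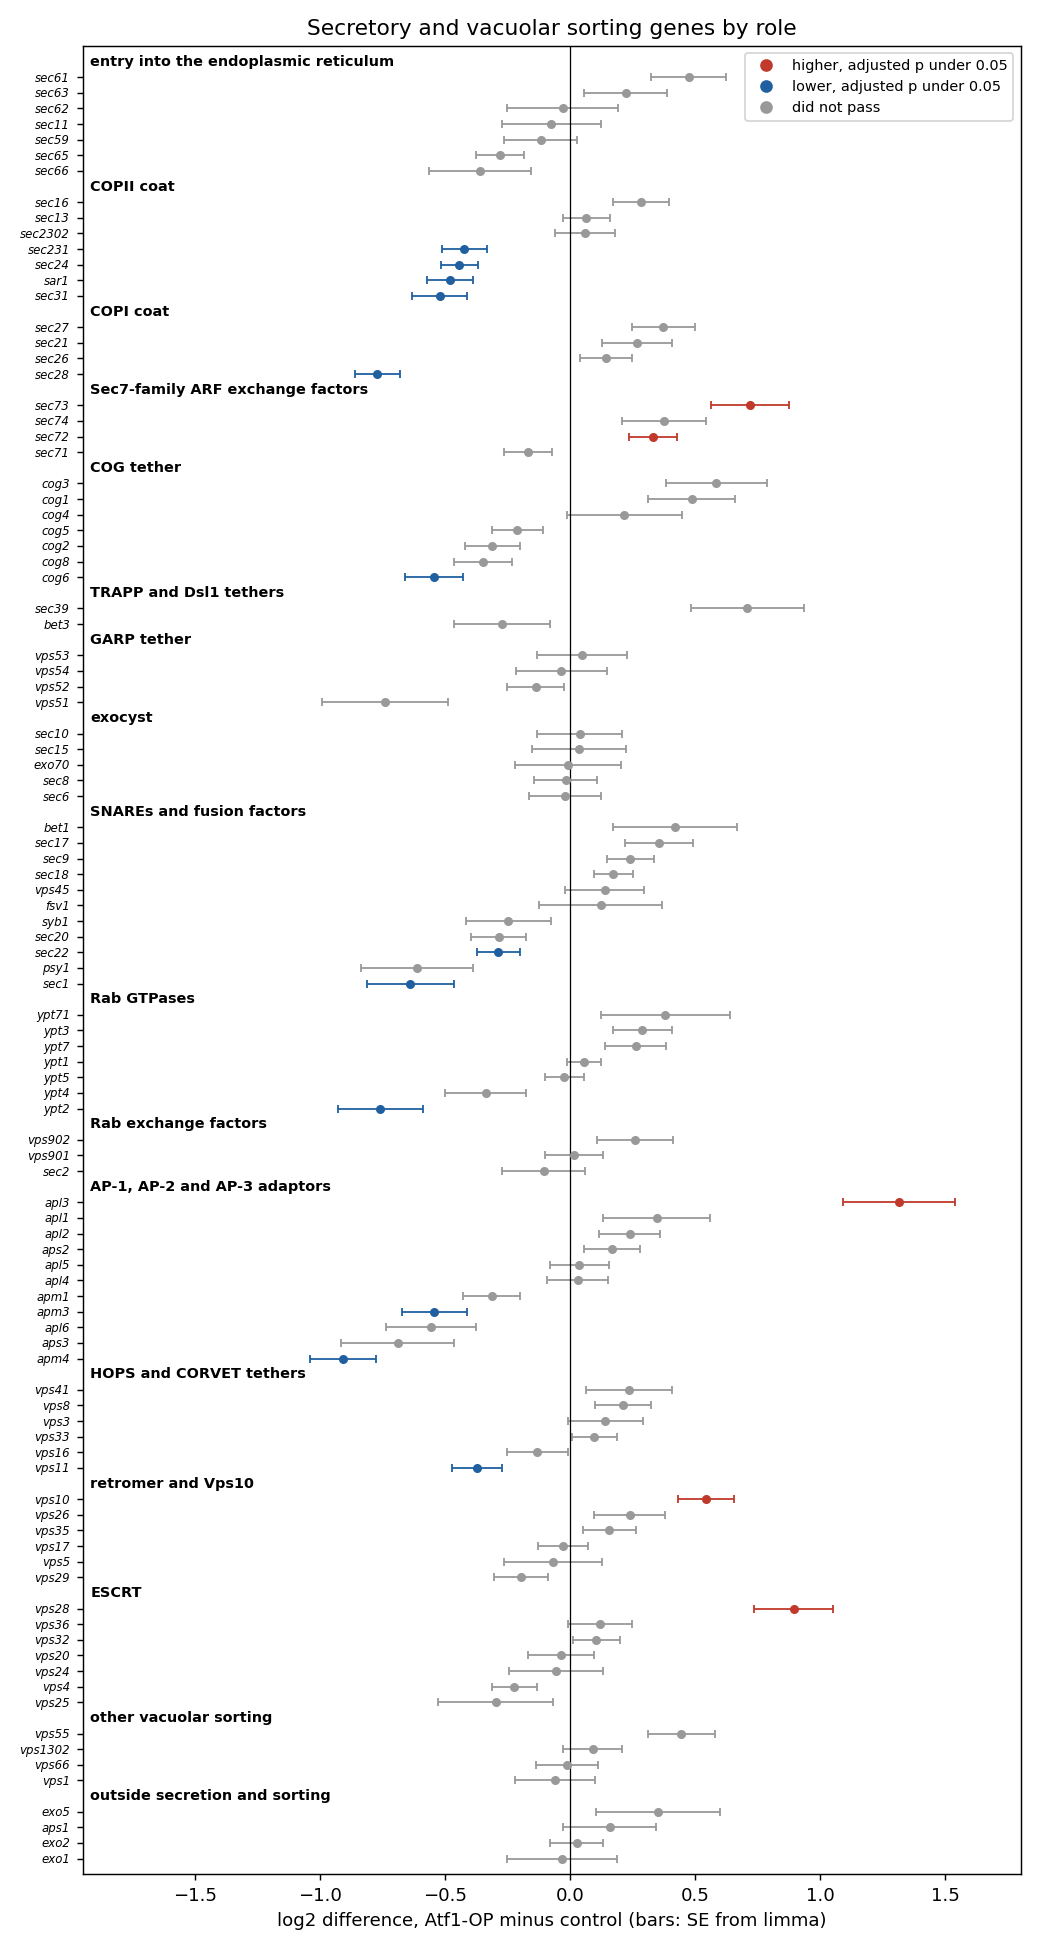
Log2 difference between overexpression and control (horizontal axis; bars show the SE of limma, n = 2 arrays per group) for the 99 tested members, grouped by role. The 5 rises (red) lie in the adaptors, the Sec7-family factors, retromer with Vps10, and ESCRT, the 12 falls (blue) include 4 COPII genes, and the 5 exocyst genes cluster at 0.

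On the way to the vacuole, the sorting receptor gene vps10 (SPBC16C6.06), whose product carries vacuolar hydrolases from the Golgi, read 8.37 and 8.15 on the control arrays and 8.89 and 8.72 on the Atf1-OP arrays. It was higher on both overexpression arrays and rose by 0.54 ± 0.11 (SE, n = 2 per group; limma, adjusted p = 0.0168). Its call was lost in each of the 4 fits without 1 array and without a trend. The retromer, which brings Vps10 back from endosomes, did not pass in any of its 5 subunit genes, beside 21.4% of all genes that passed. The differences of the 5 were 0.24 for vps26, 0.16 for vps35, -0.20 for vps29, -0.07 for vps5 and -0.03 for vps17. Arrays for vps5 read 5.82 and 6.25 against 5.84 and 6.10, and those for vps17 read 8.82 and 8.80 against 8.89 and 8.67, with overlap in both.

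The ESCRT complexes bend endosomal membrane inward to form multivesicular bodies, and 1 of their 7 tested members rose, beside 10.3% of all genes. The ESCRT-I gene vps28 (SPAC1B3.07C) read 6.42 and 6.05 on the control arrays and 7.11 and 7.15 on the Atf1-OP arrays. The control arrays differed by more than the overexpression arrays, but both lay lower. The gene rose by 0.89 ± 0.16 (SE, n = 2 per group), or 1.86-fold (limma, adjusted p = 0.0119), and its call was lost without control replicate 2 and without either overexpression array. The disassembly ATPase gene vps4 read 8.42 and 8.41 against 8.20 and 8.18, a difference of -0.22 (adjusted p = 0.110). The ESCRT-II gene vps25 read 3.39 and 3.08 against 2.82 and 3.06, dim values of which 1 in the control was not above background. The ESCRT-II gene vps36 and the ESCRT-III genes vps20, vps24 and vps32 had differences between -0.06 and 0.12. Of the ESCRT genes outside the naming rule, ist1 fell by 0.73 (adjusted p = 0.0459), and sst4, sst6, hse1, did2 and did4 did not pass.

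HOPS and CORVET tether membranes at the vacuole and at endosomes, and 1 of their 6 tested members fell, beside 11.1% of all genes. Arrays for vps11 (SPAC823.12), a core subunit of both, read 7.97 and 7.94 on the control arrays and 7.56 and 7.60 on the Atf1-OP arrays. The groups lay apart, and vps11 fell by 0.37 ± 0.10 (SE, n = 2 per group; limma, adjusted p = 0.0358), a call lost in each of the 4 fits without 1 array, in the deposited values and without a trend. The core gene vps33 read 8.32 and 8.31 against 8.43 and 8.39, a difference of 0.10 (adjusted p = 0.457), and vps16 differed by -0.13. The HOPS gene vps41 read 5.85 and 6.21 against 6.29 and 6.24, a difference of 0.23 (adjusted p = 0.344). The CORVET genes vps3 and vps8 differed by 0.14 and 0.21.

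Of 4 further vacuolar sorting genes none passed, beside 21.4% of all genes. The endosomal membrane protein gene vps55 read 7.73 and 7.56 against 7.94 and 8.25, a difference of 0.44 just outside the threshold (adjusted p = 0.0506), and it passed as higher in 8 of the 15 settings. The lipid transfer gene vps1302 read 8.23 and 7.99 against 8.12 and 8.29, and vps66 read 7.02 and 6.95 against 7.02 and 6.92, with overlap in both. The dynamin gene vps1 differed by -0.06. Of the genes outside secretion, exo2 read 7.99 and 8.14 against 8.03 and 8.14, and exo1 and aps1 differed by -0.03 and 0.16. For exo5 the arrays read 2.61 and 3.05 against 3.33 and 3.03, all near the background level, which was itself lower on the Atf1-OP arrays. It counted as above background on those arrays alone, although 3.05 on a control array and 3.03 on an Atf1-OP array hardly differ, and no fold is given.

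Differences of more than 1.5-fold were found for 11 members, of which 7 passed and 4 did not. Those that did not pass were aps3, vps51, psy1 and sec39. The share of all genes beyond 1.5-fold is not given here, so this count does not set the members against other genes. Gene length is given beside these counts, because the share of genes that fell differed between lengths. All genes were divided into 3 classes of about equal size, the shortest up to 1469 bp and the longest from 2385 bp. Of the 24 members in the shortest class 1 rose and 2 fell, of the 26 in the middle class 3 fell, and of the 49 in the longest class 4 rose and 7 fell. The shares of all genes from the shortest to the longest class were 9.33%, 9.67% and 11.8% that rose and 15.8%, 8.73% and 8.82% that fell. In each call the members were longer than all genes of that call. The median was 4288 bp for members that rose, 2503 bp for those that fell and 2261 bp for those not called. For all genes it was 2080 bp, 1531 bp and 1880 bp in the same order. After a correction for length 6 of the 99 tested members rose and 14 fell, beside 384 and 363 of all 2857 genes. Of the 17 members called before, 15 kept their call.

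Genes of the same route outside the naming rule were read from a fixed list of 99 names, of which 67 were on the array and tested. Of these, 4 rose and 10 fell, around a median of -0.01, beside 10.3% of all genes that rose and 11.1% that fell. The list of genes for entry into the endoplasmic reticulum had 3 falls and no rise among 10, the SNARE list 3 falls and no rise among 12, the coat and cargo receptor list 1 fall among 11, and the Golgi and TRAPP tether list 1 rise and 1 fall among 7. In the vacuole and endosome list 3 of 20 rose and 2 fell, and no Rab regulator passed among 7.

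The translocon gene sss1, whose product is the partner of Sec61 in the channel, read 11.82 and 11.83 on the control arrays and 11.26 and 10.92 on the Atf1-OP arrays. It was lower on both overexpression arrays and fell by 0.73 ± 0.10 (SE, n = 2 per group; limma, adjusted p = 0.00628). The signal recognition particle gene srp72 read 7.75 and 7.78 against 7.31 and 7.21, and fell by 0.50 (adjusted p = 0.0194). At the Golgi, the TRAPP genes trs120 and trs23 moved in opposite directions, with differences of 0.56 (adjusted p = 0.0100) and -0.55 (adjusted p = 0.0235). For trs120 the arrays read 7.83 and 7.85 against 8.43 and 8.37, and for trs23 they read 7.36 and 7.35 against 6.91 and 6.69. The Golgi SNARE gene sft1 read 8.77 and 8.72 against 8.36 and 8.06 and fell by 0.53 (adjusted p = 0.0204).

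Vacuolar cargo and an endosomal tether were among the rises. The carboxypeptidase Y gene cpy1, which encodes a vacuolar hydrolase sorted by Vps10, read 11.30 and 11.48 on the control arrays and 11.90 and 12.11 on the Atf1-OP arrays. Both overexpression arrays were higher, and the gene rose by 0.62 ± 0.09 (SE, n = 2 per group; limma, adjusted p = 0.00687). The vacuolar protease gene isp6 read 9.87 and 9.89 against 10.27 and 10.79 and rose by 0.65 (adjusted p = 0.0224). For pep7, which encodes an endosomal tether protein, the arrays read 3.73 and 4.06 against 4.95 and 4.85, and the gene rose by 1.0 (adjusted p = 0.0167). Its control values were dim, near the background of 3.25 and 3.33 on those arrays. The 2 falls of the vacuole and endosome list were vph1, by 0.35 (adjusted p = 0.0268), and ist1, by 0.73 (adjusted p = 0.0459). The protease gene psp3 differed by 0.33 without passing (adjusted p = 0.0511). The plot of calls under each setting shows how the counts of members varied.

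**Figure D5:**
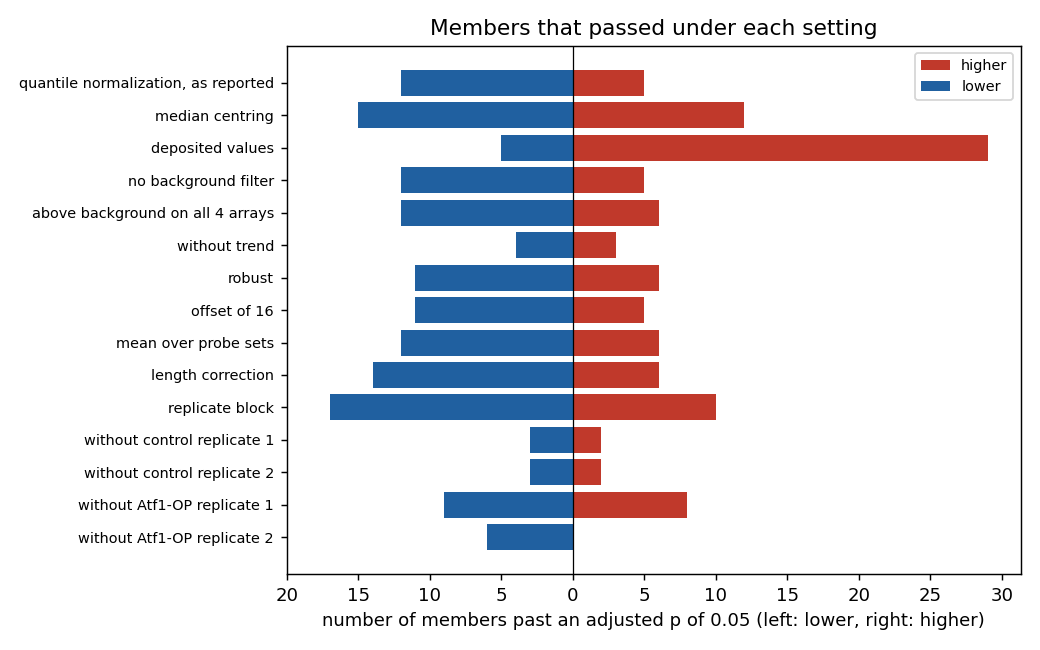
Number of members that passed an adjusted p of 0.05 (horizontal axis; lower to the left, higher to the right) under quantile normalization and each of 14 alternative settings (vertical axis). Quantile normalization gave 5 rises and 12 falls, the deposited values 29 and 5, and leaving out control replicate 1 or control replicate 2 gave 2 rises and 3 falls each.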

How the data were processed

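Biotin-labelled RNA of 2 control and 2 Atf1-OP cultures was measured with Affymetrix arrays by the standard protocol, as the labels state. The authors deposited 1 value per probe set and array, taken as log2 from the range of 1.46 to 14.0. How these log2 values were summarised and scaled is not stated in the sources used here. Of 10928 probe sets, 2917 were matched to S. pombe genes of a RefSeq gene table (ASM294v3), used for names and lengths alone. Probe sets with several genes (20) were not used.

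Deposited array medians over S. pombe probe sets spanned 0.27, more than the tolerance of 0.1, so values were quantile normalized over those probe sets. For genes with several probe sets the brightest was kept. Background came from 2593 S. cerevisiae probe sets, and 2857 genes exceeded it on at least 2 arrays. A limma model (version 3.58.1 with R 4.3.3) was fitted to these genes with lmFit and eBayes, the prior variance following the mean level. P-values were adjusted by Benjamini-Hochberg over the 2857 genes, at a threshold of 0.05. The number of arrays limits the precision. In simulated data, 200 of 2857 genes were changed in each of 5 runs. There the fit recovered 37.4% of genes changed 1.5-fold and 66.2% of those changed 2-fold, and 3.72% of its calls were false. The simulation shuffled the spreads over genes, so that variance did not follow level, and held no array feature that moved with the groups. These shares therefore do not give the power or the false share of the real comparison. Plots used matplotlib 3.10.9 (Python 3.11.15).

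The members, role groups, lists and tests were chosen with earlier results of these data known. Every member could be named. Values on each array were given for members that passed, for those with the highest and lowest mean level of each role group, for the 8 genes of the pathway list with the smallest p among those that passed, and for atf1. Array values of sec13, sec16, sec61, psy1, ypt71 and vps55 were added after they were seen. So were the differences or calls of ret2, ret3, vph1, ist1, psp3, sst4, sst6, hse1, did2 and did4 from the pathway list. Alternatives were other scalings, filters, variance models and probe set rules, an offset of 16 on the linear scale, a length correction, a replicate block and leaving out each array. No sequence was analysed here.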

Additional observations from a re-analysis of the deposited data

How the results depend on the processing

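All 17 members that passed kept their direction under the 14 alternatives, and apm4 and sec28 alone passed in every one. With the deposited values, 1019 genes passed, 903 higher and 116 lower, of which 29 and 5 were members, and the median log2 difference of members was 0.30. With median centring, 454 genes and 12 members were higher, and the members' median was 0.082. Without a variance trend 178 genes passed, 101 higher and 77 lower, with 3 members higher and 4 lower. Leaving out each array in turn gave 115 to 638 genes, 73 to 294 higher and 42 to 344 lower, with 0 to 8 members higher, 3 to 9 lower and a median of -0.0044 to 0.074; the lone array was then assumed to vary like the other group. Same-numbered arrays did not deviate together (r = 0.04 over 2 pairs of arrays), so the numbers were not taken to pair them. With a replicate block, 10 of the 99 members were higher and 17 lower, beside 413 and 435 of all 2857 genes.

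Reversals occurred only among members that had not passed. In the deposited values the log2 differences became 0.50 for sec62, 0.012 for vps25, 0.15 for sec6, 0.49 for exo70, 0.19 for vps66, 0.36 for sec2, 0.12 for ypt4, 0.16 for vps17, 0.32 for vps5, 0.046 for sec71 and 0.25 for bet3. Among members not covered by the rule for array values, they became 0.35 for sec11, 0.13 for sec66, 0.25 for sec59, 0.20 for sec8, 0.17 for syb1, 0.22 for ypt5, 0.13 for vps1, 0.41 for vps54, 0.012 for vps16, 0.22 for vps20, 0.32 for vps24 and 0.54 for exo1. With median centring, among members covered by that rule, they were 0.28 for sec62, 0.28 for exo70, -0.044 for exo2, -0.052 for vps901, 0.14 for sec2, 0.10 for vps5 and 0.033 for bet3. Among the others they were -0.039 for apl4, 0.13 for sec11, 0.029 for sec59, 0.0042 for vps20, 0.11 for vps24, 0.19 for vps54, 0.32 for exo1 and 0.00088 for ypt5. With the length correction, among members covered by the rule, they were 0.0044 for sec62, -0.059 for vps1302, 0.021 for vps66, -0.045 for exo2 and -0.047 for vps901. Among the others they were -0.031 for apl5, -0.0069 for sec15, 0.023 for vps20 and 0.015 for ypt5. Over the fits without 1 array, the lowest and highest values for members covered by the rule were -0.026 and 0.46 for cog4, -0.0044 and 0.12 for sec2302, -0.25 and 0.19 for sec62, -0.18 and 0.13 for sec6, -0.25 and 0.23 for exo70, -0.028 and 0.21 for vps1302, -0.068 and 0.039 for vps66, -0.053 and 0.10 for exo2, -0.069 and 0.10 for vps901, -0.14 and 0.080 for vps17, and -0.28 and 0.15 for vps5. Members outside the rule reversed there as well, such as apl4, from -0.065 to 0.12. The cause of these changes was not tested. Over 55 named results and their alternatives, 617 values kept direction and side of the threshold, 96 lost a call, 14 gained one and 41 reversed.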
